A study of Mus musculus with 24 samples.

Results

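Transcripts of 10 growth factor and receptor genes were followed in hindlimb muscle of mice after ligation of the femoral artery: the fibroblast growth factors Fgf1 and Fgf2, the hepatocyte growth factor Hgf and its receptor Met, the platelet-derived growth factors Pdgfa, Pdgfb, Pdgfc and Pdgfd, and their receptors Pdgfra and Pdgfrb. The genes were taken by symbol from the 24016 symbols of the deposited table, and for each gene the transcript with the highest mean level stood for the gene. All 10 genes were found, and 9 of them passed the filter on low values that precedes the test (at least 1 RPKM in at least 6 libraries), as did 12382 genes in all. Hgf did not pass, with at least 1 RPKM in 5 of 24 libraries, and was tested in a fit without that filter over 21039 genes.

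The study sequenced poly(A) RNA from mice of C57BL/6 background 7 days after the artery was tied in 1 hindlimb, below the branch that feeds the thigh. There were 4 groups of 6 libraries: normoxic adductor and ischemic gastrocnemius of control mice, and the same muscles of type 2 diabetic mice. The labels give the operation to all groups, place growth of arterioles in the adductor and of capillaries in the gastrocnemius, and name neither the model of diabetes nor the age of the mice. Gastrocnemius of an unoperated leg was not analysed here, so the identity of the muscle and ischemia cannot be told apart in any difference between the muscles. The labels do not say whether the libraries of a group came from separate animals, and p-values here reflect only how far these libraries scatter.

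Fibroblast growth factors bind heparan sulfate and tyrosine kinase receptors and act on endothelial cells, fibroblasts and muscle precursors. Hepatocyte growth factor is secreted as an inactive precursor, is cleaved by serine proteases, and signals through the Met receptor, which muscle stem cells and endothelial cells carry. Platelet-derived growth factors are dimers: the A and C chains signal mainly through the alpha receptor of fibroblasts and fibro-adipogenic progenitors, while the B chain, made by endothelium, recruits pericytes and smooth muscle cells through the beta receptor, which the D chain also binds.

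Levels are given as RPKM (reads scaled by exon length in kilobases and by the library's total reads in M), and can be compared between genes because they are per length. Library totals ran from 7.13 to 15.6 M reads. Every group is a mix of library sets, which no label names and which are separated here by the reference gene Gapdh. In the first set of 14 libraries it stood at 677 to 1757 RPKM (in each muscle, numbers 1 to 3 of the control and 1 to 4 of the diabetic mice), and in the second set, the other 10, at 0.365 to 13.7 RPKM. Fast muscle fibre markers, listed in sum at 45910 RPKM or more in every adductor library, and endothelial and fibroblast markers were present in all groups, so the tissue label holds. In bulk muscle, fewer cells of a type and less RNA per cell cannot be told apart. The gastrocnemius libraries control 3 and diabetic 2 lay near the adductor in adult fast myosin: Myh4 was 3524 and 3266 RPKM there, 635 to 1411 RPKM in the other 10 gastrocnemius libraries and 2937 to 6367 RPKM in adductor. The muscle differences of Pdgfc and Fgf1 are given with and without them. For other genes, values without them are given where a sign changed.

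Promoters are shown for 3 genes that were higher in gastrocnemius under both scalings used below (Hgf, Pdgfc and Pdgfra) and for Pdgfa, which was higher under 1 of them. Each sequence holds the 250 bases before the gene's start in RefSeq on GRCm38.p6, a later build than the mm9 of the deposited table, and 7 of the 10 genes had an entry that could be used. Capitals mark the GC box, GGGCGG on either strand. The Hgf window is chr5:16553245-16553494 on the plus strand, the Pdgfc window chr3:81036166-81036415 on the plus strand, the Pdgfra window chr5:75152001-75152250 on the plus strand, and the Pdgfa window chr5:138994945-138995194 on the minus strand.
Hgf: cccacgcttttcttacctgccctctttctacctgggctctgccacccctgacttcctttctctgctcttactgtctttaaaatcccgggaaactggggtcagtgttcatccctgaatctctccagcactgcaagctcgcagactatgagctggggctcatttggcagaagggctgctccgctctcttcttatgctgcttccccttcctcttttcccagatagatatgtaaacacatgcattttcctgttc
Pdgfc: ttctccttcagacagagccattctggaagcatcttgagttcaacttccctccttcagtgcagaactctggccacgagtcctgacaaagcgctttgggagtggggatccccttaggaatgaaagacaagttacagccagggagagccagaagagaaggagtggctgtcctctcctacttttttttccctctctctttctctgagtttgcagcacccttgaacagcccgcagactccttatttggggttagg
Pdgfra: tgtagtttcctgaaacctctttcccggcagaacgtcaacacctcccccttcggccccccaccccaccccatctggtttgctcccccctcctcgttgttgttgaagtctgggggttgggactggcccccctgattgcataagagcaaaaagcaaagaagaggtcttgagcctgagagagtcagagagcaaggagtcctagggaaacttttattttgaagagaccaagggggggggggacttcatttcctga
Pdgfa: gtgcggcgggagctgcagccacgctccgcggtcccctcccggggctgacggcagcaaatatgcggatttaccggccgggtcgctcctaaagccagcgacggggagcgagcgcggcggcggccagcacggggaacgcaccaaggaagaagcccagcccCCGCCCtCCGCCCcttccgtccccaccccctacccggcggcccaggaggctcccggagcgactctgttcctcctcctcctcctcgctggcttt
The GC box was at 2 places in the Pdgfa window and at 0 in those of Hgf, Pdgfc and Pdgfra, and 32.7% of 32851 such windows of the mouse genome held it. Windows of Met and Fgf2 held it at 3 and 1 places and that of Pdgfd at 0. G and C made up 72.4% of the Pdgfa window, against 50.8% for Hgf and Pdgfc and 54.4% for Pdgfra, with a median of 52.4% over all windows. TATAAA, searched on both strands, was found in the Pdgfd window alone among the 7 (12.4% of all windows). These matches describe the letters of the windows and not sites in use.

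In adductor the order of levels was led by Pdgfa, at 14.8 ± 2.75 RPKM in control and 14.2 ± 2.31 RPKM in diabetic mice (SD, n = 6), followed by Pdgfb at 8.18 ± 1.89 and 7.58 ± 1.43 RPKM. The ranges of these neighbours did not overlap. Below them came Pdgfrb, Pdgfra, Fgf1 and Met with means between 2.55 and 6.32 RPKM, in which most neighbours overlapped, then Fgf2, Pdgfd and Pdgfc with means of 0.581 to 1.08 RPKM, and Hgf last at 0.137 ± 0.145 and 0.0830 ± 0.0882 RPKM. In gastrocnemius Pdgfa and Pdgfrb shared the top with overlapping ranges, Pdgfb and Pdgfra followed, and Fgf2 was last at 0.781 ± 0.776 and 0.672 ± 0.725 RPKM. Within a library Pdgfrb exceeded Pdgfra in all 24, and Pdgfa exceeded Pdgfb in all 24. Pdgfc exceeded Pdgfd in 3 of 6 libraries of each adductor group and in 6 of 6 of each gastrocnemius group.

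**Figure D1:**
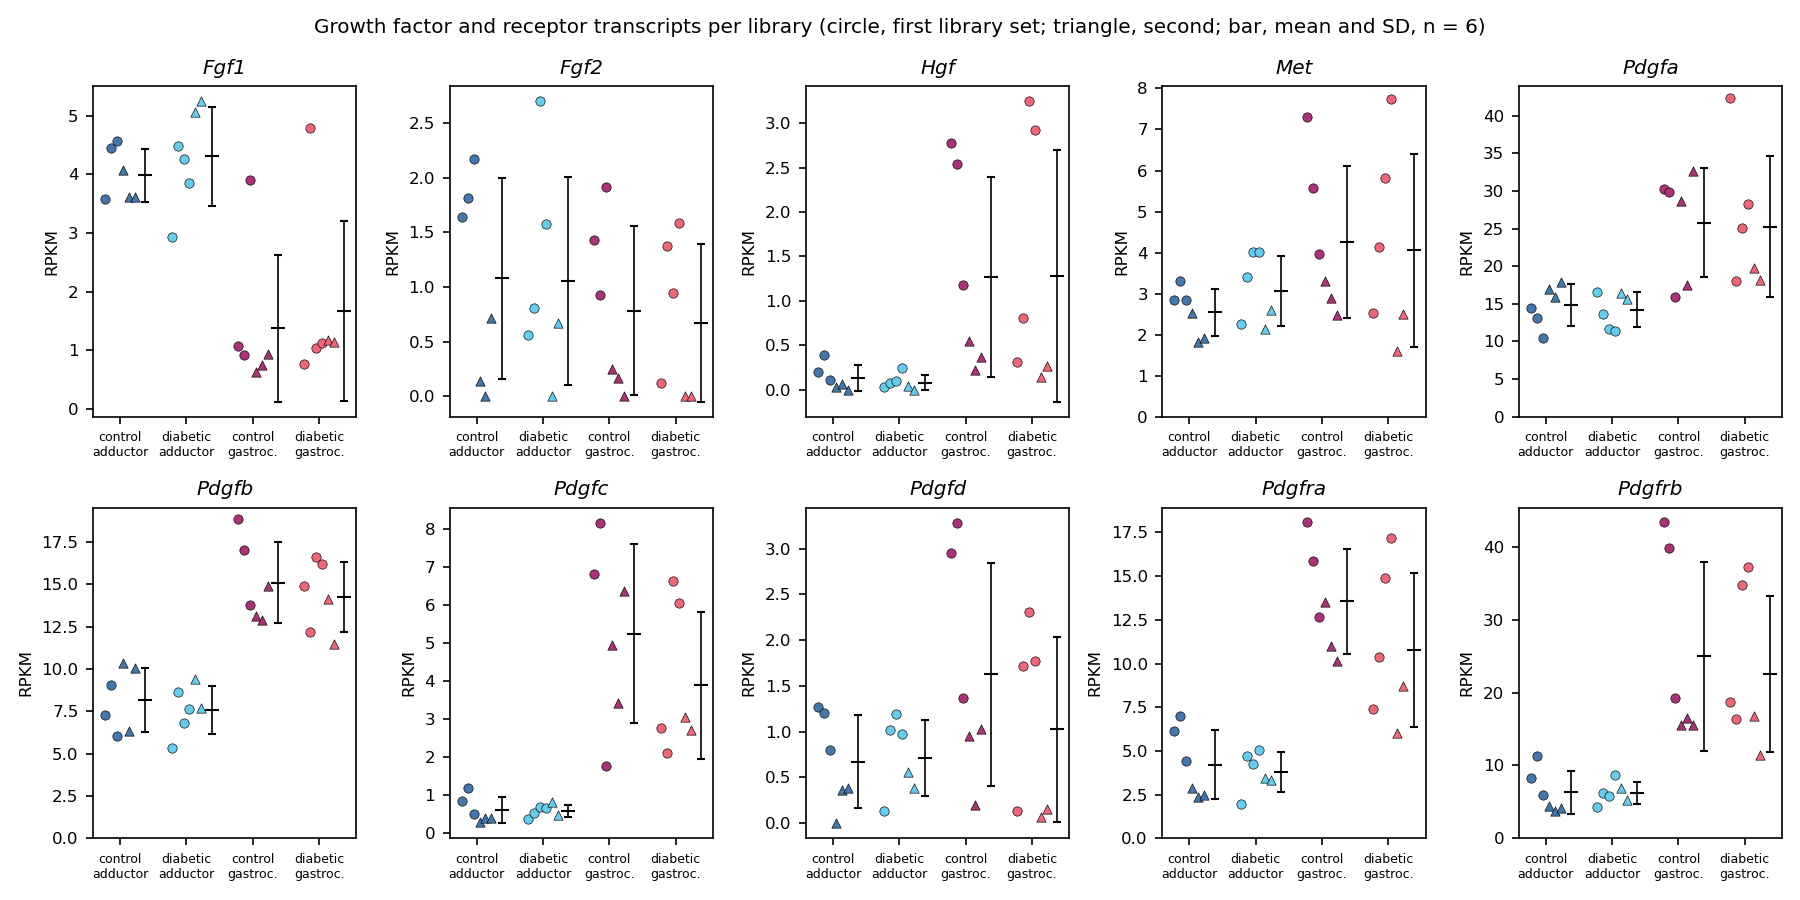
RPKM (vertical axes, linear) of the 10 genes in each library of the 4 groups; circles are the 14 libraries of the first set, triangles the 10 of the second, and the bar beside each group is the mean with SD (n = 6). Pdgfb, Pdgfc, Pdgfra and Pdgfrb have every control gastrocnemius library above every control adductor library, and control and diabetic libraries overlap for every gene.

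The main contrast asked how these transcripts differ between the ischemic gastrocnemius, where the labels place capillary growth, and the normoxic adductor. Pdgfc, both PDGF receptors, Pdgfa, Pdgfb and Hgf were higher in gastrocnemius in control and in diabetic mice, and Fgf1 was lower. Pdgfa and Pdgfb were called with RPKM as deposited and not after median-of-ratios scaling, which sets each library's factor from its median gene. Of the 9 genes that passed the filter, limma called 5 higher and 1 lower in control mice, where 63.1% of all tested genes were called (54.4% higher and 8.7% lower), and 5 higher and 1 lower in diabetic mice, where 56.9% were called (48.1% higher and 8.83% lower). Calls are at an adjusted p of 0.05 (Benjamini-Hochberg over all genes tested). The share of calls among the 9 genes was near that of all genes. Pdgfc passed the filter through gastrocnemius, with at least 1 RPKM in 12 libraries of that muscle and 1 of adductor, and so had to differ; these counts are a description. All gastrocnemius libraries lay above all adductor libraries for 4 of the 9 in control and 5 in diabetic mice, and below them for 0, while 36.3% of all tested genes in control (33.3% higher, 3% lower) and 31.4% in diabetic mice (29% higher, 2.33% lower) had no overlap. Their median log2 difference was 0.77 in control and 0.75 in diabetic mice, beside 0.66 and 0.55 for all tested genes.

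Pdgfc, the ligand of the alpha receptor that is activated by cleavage of its CUB domain, ran from 0.274 to 1.17 RPKM in control adductor (median 0.445) and from 1.75 to 8.17 RPKM in control gastrocnemius (median 5.66). In diabetic mice it ran from 0.355 to 0.801 RPKM (median 0.593) and from 2.12 to 6.63 RPKM (median 2.90). All gastrocnemius libraries lay above all adductor libraries in both mouse groups. The log2 difference was 2.31 ± 0.29 in control (limma adjusted p = 6.0e-07) and 1.93 ± 0.29 in diabetic mice (adjusted p = 7.5e-06). Its lowest gastrocnemius libraries were control 3 and diabetic 2, and without this pair the differences were 2.56 and 2.05. Within the first and second library sets they were 2.0 and 2.63 in control and 2.09 and 1.60 in diabetic mice. The transcript (NM_019971) spans chromosome 3 from 80840338 to 81017953 on the plus strand in mm9, the build of all positions given with the values, and its value covers all annotated exons of that transcript.

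Pdgfra, the alpha receptor, ran from 2.38 to 7.02 RPKM in control adductor (median 3.66) and from 10.2 to 18.1 RPKM in control gastrocnemius (median 13.1). In diabetic mice it ran from 1.97 to 5.08 RPKM (median 3.85) and from 6.04 to 17.2 RPKM (median 9.55). Neither mouse group had overlap between the muscles. Its log2 difference was 1.65 ± 0.27 in control (limma adjusted p = 1.6e-05) and 1.35 ± 0.27 in diabetic mice (adjusted p = 0.0002). Pdgfrb, the beta receptor of pericytes and smooth muscle cells, ran from 3.77 to 11.3 RPKM in control adductor (median 5.21) and from 15.6 to 43.4 RPKM in control gastrocnemius (median 17.9). In diabetic mice it ran from 4.37 to 8.64 RPKM (median 6.00) and from 11.4 to 37.3 RPKM (median 17.8), again with no overlap. The log2 difference of Pdgfrb was 1.86 ± 0.32 in control (limma adjusted p = 2.4e-05) and 1.68 ± 0.32 in diabetic mice (adjusted p = 9.5e-05). Its 4 highest libraries, control gastrocnemius 1 and 2 with 43.4 and 39.8 RPKM and diabetic gastrocnemius 3 and 4 with 34.8 and 37.3 RPKM, stood apart from the other 8 at 11.4 to 19.3 RPKM. Pdgfra (NM_011058) lies on chromosome 5 from 75548316 to 75594229 (plus strand) and holds the microRNA gene Mir7025 on its own strand, and Pdgfrb (NM_008809) lies on chromosome 18 from 61204804 to 61244721 on the plus strand.

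Hgf, the Met ligand, was close to the limit of detection in adductor: 0 to 0.397 RPKM in control (median 0.0921) and 0 to 0.248 RPKM in diabetic mice (median 0.0612), from 0 to 15 reads a library. In gastrocnemius it ran from 0.223 to 2.77 RPKM in control (median 0.862) and from 0.145 to 3.25 RPKM in diabetic mice (median 0.561). The muscles overlapped in both mouse groups. In the fit without a filter the log2 difference was 1.26 ± 0.41 in control (limma adjusted p = 0.016) and 1.25 ± 0.41 in diabetic mice (adjusted p = 0.018), where 39.1% and 36.2% of 21039 genes were called higher. With a pseudocount of 0.5 this scale understates the change of so low a gene. The same 4 libraries that were highest in Pdgfrb were highest in Hgf, at 2.77, 2.54, 3.25 and 2.92 RPKM, and the next was control gastrocnemius 3 at 1.18 RPKM. Without control gastrocnemius 1 or 2 the control difference was 1.03 and 1.05 and missed the threshold (adjusted p = 0.052 and 0.051), and without diabetic gastrocnemius 3 or 4 the diabetic difference was 0.96 and 0.99 (adjusted p = 0.06 and 0.059). Within the sets the differences were 1.81 and 0.70 in control and 1.66 and 0.43 in diabetic mice, the last not called (adjusted p = 0.11). A total of 3 reads, taken as the floor, corresponds to 0.0727 RPKM of Hgf in the deepest library and 0.159 RPKM in the shallowest, and 6 libraries were under it. Hgf (NM_001289461, 1 of 5 transcripts) lies on chromosome 5 from 16059719 to 16125257 on the plus strand.

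Met, the receptor for Hgf, was present in every library. It ran from 1.83 to 3.31 RPKM in control adductor (median 2.69) and from 2.48 to 7.31 RPKM in control gastrocnemius (median 3.63), and in diabetic mice from 2.13 to 4.02 RPKM (median 3.0) and from 1.59 to 7.75 RPKM (median 3.33). The muscles overlapped, and the same 4 gastrocnemius libraries were the highest. The log2 difference was 0.58 ± 0.28 in control and 0.23 ± 0.28 in diabetic mice, and limma called neither (adjusted p = 0.078 and 0.52). The control difference passed when the replicate number that the muscles share was a block (adjusted p = 0.0048) and with a term for the library set (adjusted p = 0.011). Met exceeded Hgf in all 24 libraries, with a median ratio of 24.9 in control and 42.5 in diabetic adductor, over the 5 libraries of each with Hgf above 0, and of 4.7 and 6.56 in gastrocnemius. Met (NM_008591) lies on chromosome 6 from 17413957 to 17523980 on the plus strand.

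Pdgfa and Pdgfb were the most abundant ligands of the 10 genes. Pdgfb, the B chain made by endothelial cells, ran from 6.02 to 10.3 RPKM in control adductor (median 8.18) and from 12.9 to 18.9 RPKM in control gastrocnemius (median 14.3), and in diabetic mice from 5.33 to 9.41 RPKM (median 7.65) and from 11.5 to 16.6 RPKM (median 14.5). There was no overlap between the muscles in either mouse group. The log2 difference was 0.86 ± 0.16 in control and 0.88 ± 0.16 in diabetic mice (limma adjusted p = 7.7e-05 in both). Pdgfa, the A chain, ran from 10.5 to 17.9 RPKM in control adductor (median 15.2) and from 15.9 to 32.6 RPKM in control gastrocnemius (median 29.3), with control gastrocnemius 3 and 5 inside the adductor range. In diabetic mice it ran from 11.4 to 16.5 RPKM (median 14.7) and from 18.1 to 42.3 RPKM (median 22.4), without overlap. The log2 difference of Pdgfa was 0.75 ± 0.22 in each mouse group (limma adjusted p = 0.0045 in control and 0.0047 in diabetic mice). After median-of-ratios scaling neither was called: Pdgfa had -0.04 and 0.09 (limma adjusted p = 0.88 and 0.73) and Pdgfb 0.09 and 0.22 (adjusted p = 0.61 and 0.18). In the second library set of diabetic mice neither ligand was called, with 0.23 for Pdgfa and 0.56 for Pdgfb (adjusted p = 0.48 and 0.09). Pdgfb (NM_011057) lies on chromosome 15 from 79826306 to 79845238 on the minus strand and holds Mir7213 on that strand, and Pdgfa (NM_008808) lies on chromosome 5 from 139452929 to 139470907 on the minus strand.

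Pdgfd, the D chain that binds the beta receptor, was low and varied widely. It ran from 0 to 1.27 RPKM in control adductor (median 0.592) and from 0.197 to 3.28 RPKM in control gastrocnemius (median 1.20), and in diabetic mice from 0.13 to 1.19 RPKM (median 0.77) and from 0.0712 to 2.30 RPKM (median 0.939). The groups overlapped. Its log2 difference was 0.77 ± 0.45 in control and 0.10 ± 0.45 in diabetic mice, and limma called neither (adjusted p = 0.14 and 0.87). As for Met, the control value passed with the replicate block (adjusted p = 0.01) and with a term for the set (adjusted p = 0.036). Pdgfd (NM_027924) lies on chromosome 9 from 6168612 to 6377519 on the plus strand, with Ddi1 on the opposite strand at 0.00202 RPKM on average.

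Fgf1, the acidic fibroblast growth factor, was the gene of the 10 that was lower in gastrocnemius. It ran from 3.57 to 4.57 RPKM in control adductor (median 3.85) and from 2.93 to 5.25 RPKM in diabetic adductor (median 4.37). In gastrocnemius it ran from 0.631 to 3.905 RPKM in control (median 0.931) and from 0.768 to 4.80 RPKM in diabetic mice (median 1.14). In each mouse group 5 of 6 gastrocnemius libraries lay below every adductor library, and the exceptions were control gastrocnemius 3 at 3.905 RPKM and diabetic gastrocnemius 2 at 4.80 RPKM, the pair that lay near the adductor in Myh4. The log2 difference was -1.44 ± 0.30 in control (limma adjusted p = 0.00022) and -1.32 ± 0.30 in diabetic mice (adjusted p = 0.00062), and without the pair -1.72 and -1.62. Within the first set, which holds both libraries, it was -1.12 in control and not called (adjusted p = 0.058) and -1.10 in diabetic mice (adjusted p = 0.035). Within the second set it was -1.75 and -1.77. Slow myosin Myh7 also set the pair apart, at 38.3 and 65.3 RPKM against 0.352 to 11.7 RPKM in the other gastrocnemius libraries. The part that fibre content has in the Fgf1 difference was not tested. Fgf1 (NM_010197) lies on chromosome 18 from 38998327 to 39078353 on the minus strand, with Gm5820 on the opposite strand at 0.0539 RPKM on average.

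Fgf2, the basic fibroblast growth factor, had few reads. Its annotated exons cover 694 bases, it had 0 to 29 reads a library, and 9 libraries were under 3 reads, 8 of them in the second set. It ran from 0 to 2.17 RPKM in control adductor (median 1.18) and from 0 to 1.92 RPKM in control gastrocnemius (median 0.584), and in diabetic mice from 0 to 2.71 RPKM (median 0.74) and from 0 to 1.59 RPKM (median 0.532). Libraries of the first set ran from 0.12 to 2.71 RPKM and those of the second from 0 to 0.713 RPKM. The part of the set and of depth in its spread was not tested. Its log2 difference was -0.27 ± 0.52 in control and -0.44 ± 0.52 in diabetic mice, with intervals of -1.34 to 0.80 and -1.51 to 0.64 (limma adjusted p = 0.67 and 0.49). Fgf2 (NM_008006) lies on chromosome 3 from 37247575 to 37303752 on the plus strand.

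**Figure D2:**
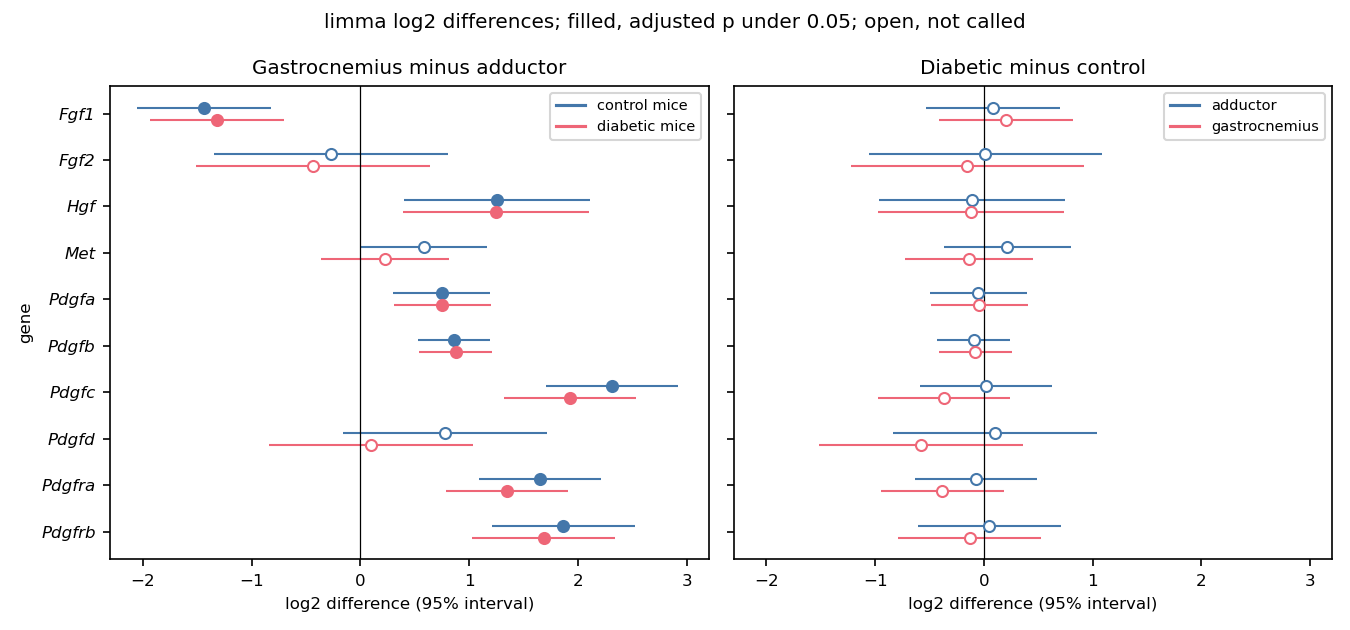
Log2 difference (horizontal axis) with its 95% interval for each gene from limma, gastrocnemius minus adductor on the left and diabetic minus control on the right; filled points are called, open points are not, and Hgf comes from the fit without a filter. In the muscle contrasts Pdgfc lies farthest to the right at 2.31 in control mice and Fgf1 farthest to the left at -1.44, and in the diabetes contrasts every interval includes 0.

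The muscle differences depend in part on the scaling. RPKM shares 1 total among all genes. Of 8 muscle fibre markers 5 were called lower in gastrocnemius in control and 4 in diabetic mice. Their summed level had a median of 49140 RPKM in gastrocnemius against 87650 RPKM in adductor of control mice, and of 46580 against 58830 RPKM in diabetic mice, and the ranges of the muscles overlapped in both. Under median-of-ratios scaling the median of all genes moved from 0.66 to -0.05 in control and from 0.55 to -0.07 in diabetic mice. The calls over all genes moved from 6730 higher and 1077 lower to 3306 and 3315 in control, and from 5958 and 1093 to 3183 and 3309 in diabetic mice. Of the 9 genes 4 were called in each mouse group, 3 higher and 1 lower, beside 54.7% of all genes in control and 53.7% in diabetic mice. Pdgfc (1.73 and 1.43), Pdgfrb (1.10 and 1.03), Pdgfra (0.91 and 0.72) and Hgf (0.91 and 0.96) were higher in gastrocnemius under this scaling too, with limma adjusted p of 0.035 or less in control and 0.027 or less in diabetic mice. Fgf1 was lower by more than with RPKM as deposited, at -2.04 and -1.85. Met was at -0.12 and -0.37, of the opposite sign to its deposited value in both mouse groups, and Pdgfd was at 0.29 and -0.31, opposite in diabetic mice.

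**Figure D3:**
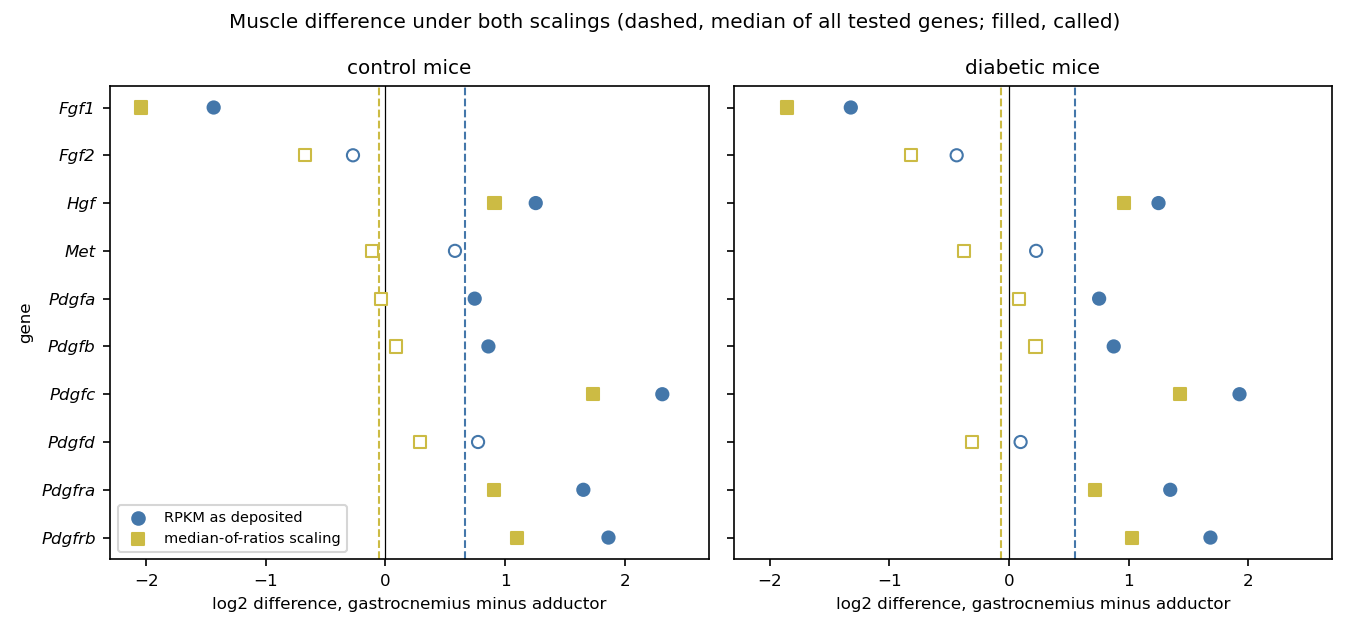
Log2 difference between gastrocnemius and adductor (horizontal axis) for each gene with RPKM as deposited (circles) and after median-of-ratios scaling (squares), in control and diabetic mice; filled points are called, and dashed lines are the median of all tested genes under each scaling. Pdgfa and Pdgfb move to within 0.22 of 0, while Pdgfc, Pdgfra, Pdgfrb and Hgf stay on the right and Fgf1 on the left.

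Markers of several other cell types were higher in gastrocnemius with RPKM as deposited. Of all tested genes 54.4% were called higher and 8.7% lower in control mice, and 48.1% and 8.83% in diabetic mice. The summed RPKM of 8 fibroblast markers, Dcn and Lum first among them, ran from 266 to 978 in control adductor and from 1585 to 5266 in control gastrocnemius, and from 288 to 489 and 1260 to 4383 in diabetic mice, with 8 of 8 markers called higher in both. Macrophage markers ran from 27.4 to 248 RPKM in control adductor and from 378 to 1506 RPKM in control gastrocnemius, with 7 of 8 called higher, and from 49.1 to 100.2 and 281 to 1243 RPKM in diabetic mice, with 8 of 8. Myogenic markers, from satellite cells to embryonic myosin, ran from 14.3 to 121 and 562 to 1157 RPKM in control mice and from 14.8 to 56.3 and 478 to 1170 RPKM in diabetic mice, with 7 of 7 called higher in both. Endothelial markers ran from 72.9 to 97.5 and 138 to 203 RPKM in control mice and from 64.4 to 109 and 121 to 166 RPKM in diabetic mice, with 6 of 8 called higher in both. Pericyte markers ran from 38.4 to 125 and 47.1 to 137 RPKM in control mice and from 49.9 to 141 and 46.7 to 122 RPKM in diabetic mice, with 2 of 6 called higher in control, and 3 higher and 1 lower in diabetic mice. Smooth muscle markers had 3 of 6 called higher and 3 lower in both, and their sums ran from 53.6 to 112 and 89.1 to 427 RPKM in control and from 50.3 to 87.8 and 99.6 to 306 RPKM in diabetic mice. After median-of-ratios scaling 27.3% of all genes were called higher in control and 26.3% in diabetic mice (27.4% lower in both). Of the 8 fibroblast markers 4 were then called higher in control and 3 in diabetic mice, with Dcn and Lum called in neither. Of the macrophage markers 7 and 6 were called higher, and of the myogenic markers 7 of 7 in both. Of the 8 endothelial markers 1 was called higher in control, and 0 higher and 1 lower in diabetic mice. In both mouse groups 1 pericyte marker was higher and 2 lower, 2 smooth muscle markers were higher and 3 lower, and fibre markers were called lower only, 8 in control and 5 in diabetic mice. No marker in the table was at 0 in all libraries. The part of these cells in the levels of the receptors and of Hgf was not tested.

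Among gastrocnemius libraries, control 1 and 2 and diabetic 3 and 4, the highest in Pdgfrb, Pdgfra, Hgf and Met, had the lowest summed fibre markers, 15770 to 22490 RPKM against 33000 to 69830 RPKM in the other 8. They also had the highest fibroblast sums, 3662 to 5266 RPKM against 1260 to 3466 RPKM, and the highest macrophage sums, 1202 to 1506 RPKM against 281 to 858 RPKM. All 4 are in the first set.

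**Figure D4:**
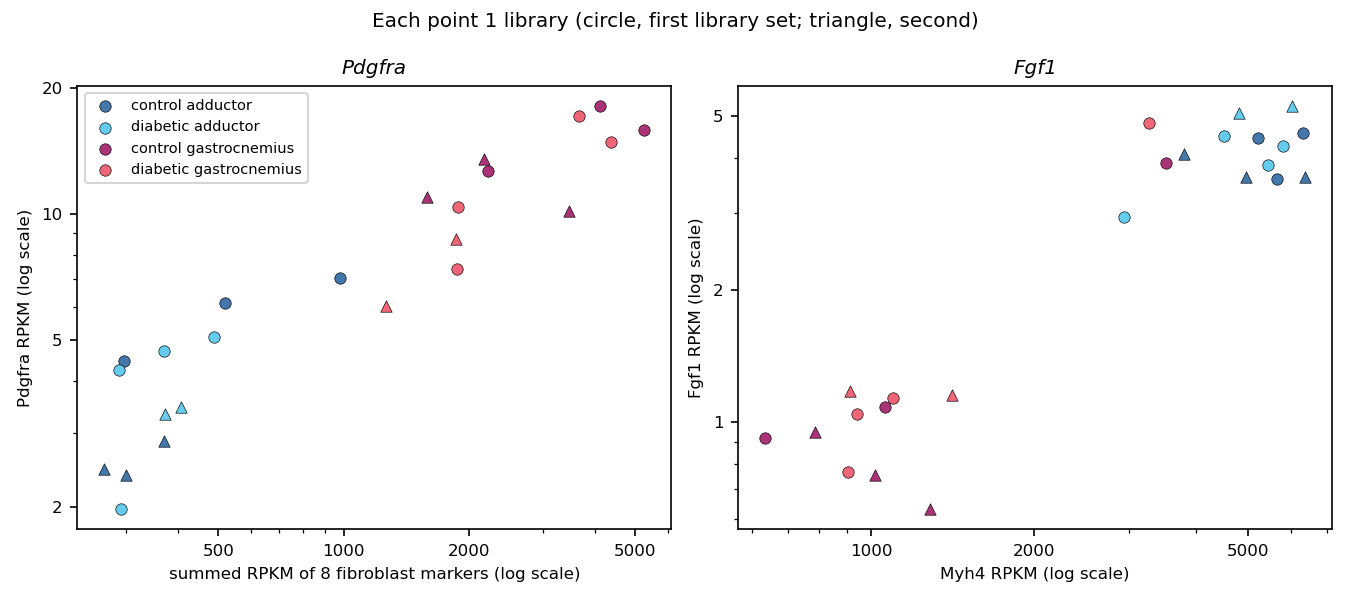
Left, Pdgfra RPKM against the summed RPKM of 8 fibroblast markers, and right, Fgf1 RPKM against Myh4 RPKM, on log axes; each point is 1 of 24 libraries, circles the first set and triangles the second. Gastrocnemius libraries lie to the upper right for Pdgfra, and on the right-hand plot control gastrocnemius 3 (Fgf1 3.905 RPKM) and diabetic gastrocnemius 2 (4.80 RPKM) lie among the adductor libraries.

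The comparison of diabetic with control mice asked whether these angiogenic and arteriogenic signals differ with diabetes. None of the 10 genes was called in either muscle. In adductor 0 of 9 were called, as were 4 of 12382 genes (0.0323%), and in gastrocnemius 0 of 9, as was 1 gene (0.00808%). Hgf was not called in the fit without a filter, where 0.0238% of genes in adductor and 0.019% in gastrocnemius were called in either direction. At an unadjusted p under 0.05 limma had 339 and 156 genes, none of the 10 among them, and voom also called 0 of the 9. For all 10 genes the control and diabetic ranges overlapped in both muscles, where 0.218% of tested genes in adductor and 0.0646% in gastrocnemius did not overlap.

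In adductor the log2 differences, diabetic minus control, lay between -0.11 and 0.22. Pdgfb had the narrowest interval, from -0.43 to 0.24 around -0.10, and Fgf2 the widest, from -1.06 to 1.08 around 0.01. For Pdgfa the interval was -0.50 to 0.40, for Pdgfra -0.64 to 0.49, for Pdgfrb -0.61 to 0.71, for Pdgfc -0.59 to 0.63 and for Fgf1 -0.53 to 0.70. These intervals leave room for changes of such sizes in either direction. The pooled values hide opposite signs in the library sets for several genes: Pdgfra had -0.54 in the first set against 0.34 in the second, Pdgfrb -0.41 and 0.51, Pdgfc -0.32 and 0.39, Pdgfd -0.34 and 0.42, and Fgf1 -0.11 and 0.41. None was called in a set. The sets hold 3 control and 4 diabetic, and 3 control and 2 diabetic adductor libraries.

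In gastrocnemius 9 of the 10 values were negative, and the difference was farthest from 0 for Pdgfd (-0.58 ± 0.45, interval -1.52 to 0.36), Pdgfra (-0.38 ± 0.27, interval -0.94 to 0.18) and Pdgfc (-0.37 ± 0.29, interval -0.97 to 0.24). The limma adjusted p was 0.9995 for each of the 3, and the smallest unadjusted p of the 10 genes was 0.17, for Pdgfra. Control means were 1.63 ± 1.22 RPKM for Pdgfd, 13.6 ± 3.01 RPKM for Pdgfra and 5.25 ± 2.36 RPKM for Pdgfc (SD, n = 6). Diabetic means were 1.03 ± 1.01, 10.8 ± 4.39 and 3.89 ± 1.93 RPKM. How many were negative depends on single libraries. Of the 9 genes that passed the filter 1 was positive (median -0.14), but 5 were without control gastrocnemius 1 (median 0.01), 3 without control gastrocnemius 2 and 4 without diabetic gastrocnemius 5 or 6. Pdgfd, Pdgfra and Pdgfc had the same sign in both sets: -0.74 and -0.92 for Pdgfd, -0.36 and -0.63 for Pdgfra, and -0.23 and -0.64 for Pdgfc, none called. The median of all tested genes was -0.06. Fgf1 had 0.20 ± 0.30 (-0.08 and 0.39 in the sets), Pdgfa -0.04 ± 0.22, Pdgfb -0.08 ± 0.16, Pdgfrb -0.13 ± 0.32, Met -0.14 ± 0.28, Fgf2 -0.15 ± 0.52 and Hgf -0.12 ± 0.41.

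A further contrast subtracted the diabetes effect in adductor from that in gastrocnemius, and it shares its libraries with both. Limma called 0 of 9 genes and 0 of 12382 genes (0%), with 154 genes at an unadjusted p under 0.05 and 0 called by voom. The value farthest from 0 was that of Pdgfd, -0.68 ± 0.64 (interval -2.0 to 0.65), followed by Pdgfc at -0.39 ± 0.41, Met at -0.35 ± 0.40 and Pdgfra at -0.31 ± 0.38. Pdgfa and Pdgfb were at 0.01 ± 0.31 and 0.02 ± 0.23.

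The wider pathway was described by 77 other genes in 6 roles, of which 52 passed the filter. In the muscle contrast limma called 42 higher and 1 lower in control mice (median log2 difference 1.20) and 38 higher and 1 lower in diabetic mice (median 1.07), beside 54.4% and 48.1% of all tested genes higher and medians of 0.66 and 0.55. Under median-of-ratios scaling, where 49 passed the filter, 25 were higher and 5 lower in control (median 0.53) and 24 and 6 in diabetic mice (median 0.55), beside 27.3% and 26.3% of all genes called higher. A gene that passed the filter through the muscle where it is high had to differ, so these counts are a description. In the diabetes contrasts and in the difference of effects 0 of 52 were called.

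Of 21 other ligands 5 were tested and 4 were higher in control gastrocnemius (3 in diabetic). Fgf11, an intracellular FGF homologous factor that does not bind FGF receptors, rose from 1.29 ± 0.802 to 11.3 ± 3.22 RPKM in control and from 0.872 ± 0.218 to 12.5 ± 3.67 RPKM in diabetic mice. Fgf7, keratinocyte growth factor, rose by a log2 difference of 1.22 ± 0.19 and 0.88 ± 0.19, and the stress hormone Fgf21 by 1.20 ± 0.27 and 1.72 ± 0.27 from adductor means of 0.0292 and 0.0385 RPKM. Fgf11 and Fgf7 were higher under both scalings, and Fgf21 did not pass the filter after median-of-ratios scaling, where 2 ligands of 3 were called higher and 1 lower in both mouse groups.

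All 4 tested receptors of 8 were higher in gastrocnemius in both mouse groups. The decoy receptor Fgfrl1, which lacks a kinase domain, rose from 9.03 ± 3.14 to 73.1 ± 25.1 RPKM in control and from 7.43 ± 1.76 to 59.7 ± 14.6 RPKM in diabetic mice. Fgfr4, the receptor of muscle progenitors and regenerating fibres, rose by 2.60 ± 0.50 and 3.37 ± 0.50, although 1 control adductor library reached 10.8 RPKM. Fgfr1, the main receptor of Fgf1 and Fgf2 in mesenchymal cells, rose by 1.19 ± 0.21 and 1.03 ± 0.21. These 3 were called under both scalings, and were the 3 receptors that passed the filter after rescaling.

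Of 9 genes that process the ligands or hold that processing in check, 6 were tested and 5 were higher in both mouse groups. Plat, tissue plasminogen activator, which cleaves the C chain of PDGF, rose by 2.47 ± 0.32 and 2.05 ± 0.32. Plaur, the urokinase receptor, rose by 2.61 ± 0.34 and 2.76 ± 0.34. Both were called under both scalings. After rescaling 5 of the 6 were higher and 1 lower in control, and 4 higher in diabetic mice.

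Of 14 coreceptors and binding proteins 13 were tested, and 12 were higher and 1 lower in each mouse group. Cd44, a hyaluronan receptor that also acts as a coreceptor of Met, rose from 2.56 ± 1.19 to 41.0 ± 17.4 RPKM in control and from 2.49 ± 0.732 to 29.2 ± 10.2 RPKM in diabetic mice. The heparan sulfate proteoglycans Sdc1 (2.92 ± 0.35 and 2.51 ± 0.35) and Sdc3 (2.68 ± 0.34 and 2.56 ± 0.34), which present FGFs to their receptors, rose as well. Fgfbp1, a secreted carrier that releases FGFs from the matrix, was lower, by -1.79 ± 0.49 in control (limma adjusted p = 0.0026) and -1.31 ± 0.49 in diabetic mice (adjusted p = 0.024), as Fgf1 was. These 4 genes kept their calls and directions under median-of-ratios scaling, where 9 of the 13 were called higher and 1 lower in each mouse group.

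All 12 adaptors were tested, and 6 were higher in control and 5 in diabetic gastrocnemius. Of all tested genes 54.4% and 48.1% were called higher. The kinase Src (2.04 ± 0.32 and 1.47 ± 0.32), the adaptor Shc1 (1.85 ± 0.44 and 1.51 ± 0.44) and the docking protein Gab2 (1.67 ± 0.24 and 1.43 ± 0.24) had the largest values in control mice, and Shc1 was not called in diabetic mice after median-of-ratios scaling (0.86, limma adjusted p = 0.059). After that scaling 3 of the 12 adaptors were higher and 2 lower in control, and 3 higher and 4 lower in diabetic mice. Of 13 feedback regulators and targets 12 were tested, with 11 higher in control and 9 in diabetic gastrocnemius. Spred1, an inhibitor of the Ras pathway, rose by 2.01 ± 0.28 and 1.81 ± 0.28. Dusp6, the ERK phosphatase that ERK signalling induces, rose by 1.5 ± 0.25 and 1.79 ± 0.25, and the transcription factor Etv5 rose by 1.27 ± 0.30 and 1.16 ± 0.30. Etv4, a relative of Etv5, had 1.23 ± 0.23 and 1.77 ± 0.23. After median-of-ratios scaling 3 of the 12, Spred1, Dusp6 and Etv4, were called higher in each mouse group and 0 lower. That count, like the count of adaptors called higher, was near the share of all genes called higher, 27.3% in control and 26.3% in diabetic mice. Etv5 was not called after that scaling in either mouse group (0.57 and 0.55, limma adjusted p = 0.06 and 0.067).

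**Figure D5:**
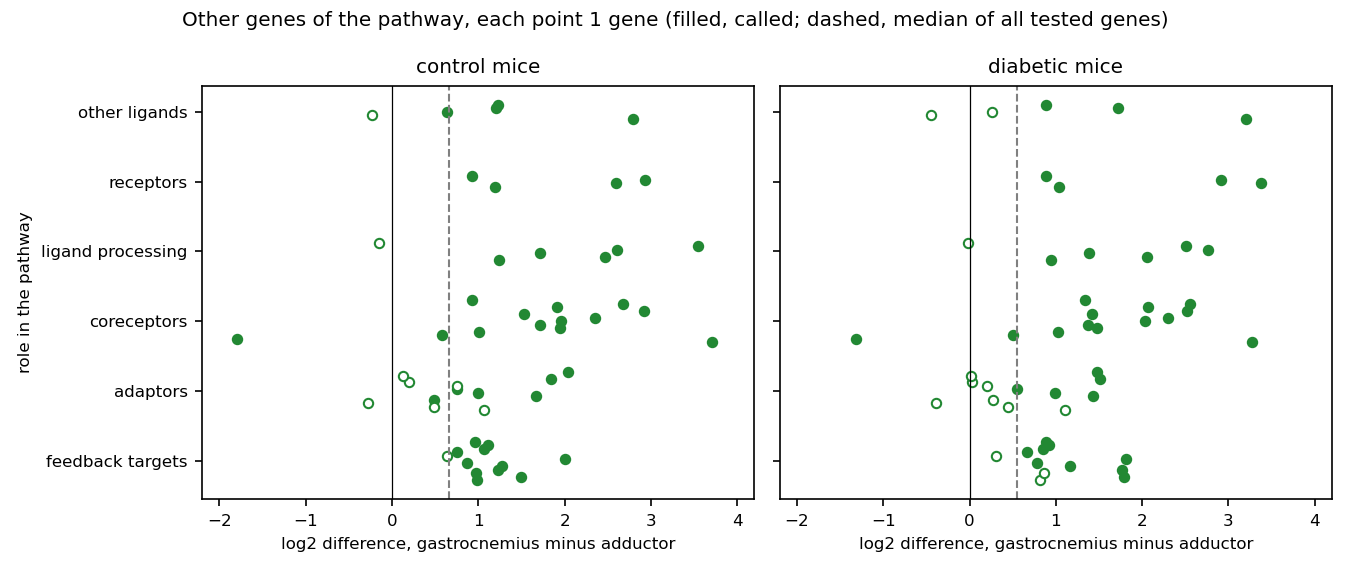
Log2 difference between gastrocnemius and adductor (horizontal axis) of the 52 tested pathway genes, each point 1 gene, by role and mouse group; filled points are called and the dashed line is the median of all tested genes. Cd44 lies farthest to the right in control mice at 3.70 (3.27 in diabetic mice), and Fgfbp1 is the called gene on the left.

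Likeness of pattern was measured over the 24 libraries as the root mean square difference between log2 values after each gene's mean was removed, so that a small value marks a like pattern. Among the members the closest pairs were Pdgfa with Pdgfb (0.32), Pdgfra with Pdgfrb (0.34) and Pdgfc with Pdgfrb (0.41), while Fgf1 and Pdgfc were farthest apart (1.95). The nearest of all tested genes were Csgalnact1 (0.17) and Dpy19l1 (0.19) for Pdgfc, Lamc1 (0.21) and Itgbl1 (0.23) for Pdgfra, Lrrk1 and Ptpra (both 0.21) for Pdgfrb, Anxa6 (0.17) and Rasip1 (0.18) for Pdgfb, and Magt1 (0.19) and Desi1 (0.21) for Pdgfa. For Fgf1 they were Syt3 (0.21) and Dennd4b (0.24), for Met Atm (0.17) and Simc1 (0.18), for Pdgfd Heatr5a (0.31) and Tmtc3 (0.32), and for Fgf2 Gm17296 (0.34) and Alkbh8 (0.36). Hgf, which did not pass the filter, was not matched. The libraries share the muscle difference and the library sets, which enter every such value.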

How the data were processed

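The authors deposited RPKM that HOMER had counted over exons of RefSeq transcripts (mouse build mm9), per the file headers, whose command has no strand option, so reads of a gene and of one on the opposite strand cannot be told apart. The submitters' processing notes list TopHat, HOMER and mm9 without versions. Whole reads within 0.01 were recovered for 99.97% of the values above 0. The 24 columns matched the titles of 24 samples. After the filter and a pseudocount of 0.5, limma 3.58.1 (R 4.3.3) fitted log2 values to 4 group means with a variance trend. The fit was also run on simulated independent normal values. Those had no library sets and no pairs, so that run cannot check the fit for them. Adjustment of p-values followed Benjamini and Hochberg, separately in each of 5 contrasts. Hgf came from a fit over 21039 genes without the filter. Floors cover counting error only. Errors are SE for log2 differences and SD for RPKM. Figures were drawn with matplotlib 3.10.9.

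The genes, the lists and the tests were chosen with earlier results of these data known. Named were all 10 genes, and of each role up to 3 pathway genes called in a muscle contrast with the largest difference in each direction, plus any called in a diabetes contrast, with Etv4 coming from diabetic mice. The values of 1 gene named by this rule are not reported here. Same-numbered libraries of the muscles deviated together within each mouse group (r from 0.254 to 0.736, all 12 pairs above 0.1). In the muscle contrasts and in the difference of effects the replicate block uses these pairs. In each mouse group 4 of 6 gastrocnemius libraries deviated most like the adductor library of their own number. The pairs also share a library set, so r cannot tell a shared animal from a shared set. Between mouse groups r ran from -0.659 to 0.822, above 0.1 for 5 of 6 numbers in adductor and 4 of 6 in gastrocnemius. The main fit did not pair them. In the diabetes contrasts the replicate block did match control and diabetic libraries of a muscle by number, although these cannot share an animal. Number 4 of that match joins libraries of different sets (r = -0.619 in adductor and -0.659 in gastrocnemius).

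Alternatives were pseudocounts of 0.1 and 1, no filter, median-of-ratios scaling (library factors from the median ratio of genes to their geometric mean), voom on the recovered reads, the mean over all transcripts of a gene, the replicate block, a term for the library set, each set alone, and leaving out each library. Leaving out control gastrocnemius 3 and diabetic gastrocnemius 2 together was added after the data were seen. Promoter sequences and the search for motifs used RefSeq on GRCm38.p6.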

Additional observations from a re-analysis of the deposited data

Results flagged for a closer look

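In 2 of 40 groups of 6 libraries (10 genes in 4 groups) 1 library stood apart from the rest by Dixon's criterion, which chance meets in about 1 in 20 groups. Fgf1 was 3.905 RPKM in control gastrocnemius 3, against 0.631 to 1.08 RPKM in the other 5, and the gap took 0.862 of the group's range (critical value 0.625). Fgf1 was 4.799 RPKM in diabetic gastrocnemius 2, against 0.768 to 1.18 RPKM in the other 5, with a gap of 0.899 of the range. Both values lie inside or near the Fgf1 range of the adductor libraries, 2.93 to 5.25 RPKM. The same libraries had the highest Myh4 and Myh7 of the gastrocnemius libraries, as given above.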

How the results depend on the processing

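Under every alternative the count of called genes among the 9 stayed within 1.5 times: 4 to 8 in the muscle contrasts and 0 in the diabetes contrasts. Fgf1, Pdgfa, Pdgfb, Pdgfc, Pdgfra and Pdgfrb were called in both muscle contrasts in all 24 fits that left out 1 library, and Hgf in 22. The replicate block and the set term added the calls of Met and Pdgfd in control mice and changed no other call among the 10 genes. Reversed signs, none of them called, were as follows, and their cause was not tested. With median-of-ratios scaling the muscle difference was -0.12 for Met and -0.040 for Pdgfa in control, and -0.37 for Met and -0.31 for Pdgfd in diabetic mice. Pdgfd in diabetic mice was -0.073 with a pseudocount of 0.1, -0.032 by voom, -0.011 with the set term, -0.67 in the second set (Met -0.19) and -0.074 without control gastrocnemius 3 and diabetic gastrocnemius 2, and leaving out 1 library gave -0.14 to 0.32. For diabetic minus control in adductor, the first set gave -0.11 for Fgf1, -0.44 for Fgf2, 0.066 for Pdgfa, -0.32 for Pdgfc, -0.34 for Pdgfd and -0.41 for Pdgfrb, and the second set 0.34 for Pdgfra. The set term gave -0.23 for Fgf2, 0.0070 for Pdgfa, -0.027 for Pdgfc, -0.028 for Pdgfd and -0.034 for Pdgfrb, and a pseudocount of 1 gave -0.0049 for Fgf2. Leaving out 1 library gave -0.27 to 0.29 for Fgf2, -0.14 to 0.0067 for Pdgfa, -0.070 to 0.15 for Pdgfc, -0.12 to 0.27 for Pdgfd, -0.20 to 0.079 for Pdgfra and -0.066 to 0.23 for Pdgfrb. In gastrocnemius the first set gave -0.083 for Fgf1 and 0.16 for Pdgfa, and median-of-ratios scaling 0.021 for Pdgfa. Leaving out 1 library gave -0.096 to 0.48 for Fgf1, -0.38 to 0.078 for Fgf2, -0.41 to 0.11 for Hgf, -0.34 to 0.054 for Met, -0.20 to 0.038 for Pdgfa and -0.30 to 0.055 for Pdgfrb. For the difference of effects the first set gave -0.069 for Pdgfb, 0.092 for Pdgfc, 0.18 for Pdgfra and 0.062 for Pdgfrb, and the second set -0.019 for Fgf1, -0.34 for Pdgfa and -0.061 for Pdgfb. The set term gave -0.085 for Pdgfa and -0.066 for Pdgfb. Hgf was 0.049 with median-of-ratios scaling, 0.039 with a pseudocount of 0.1, 0.19 by voom and 0.043 without the 2 gastrocnemius libraries named (Pdgfa -0.037). Leaving out 1 library gave -0.18 to 0.40 for Fgf1, -0.45 to 0.11 for Fgf2, -0.30 to 0.22 for Hgf, -0.15 to 0.10 for Pdgfa, -0.075 to 0.092 for Pdgfb and -0.36 to 0.0058 for Pdgfrb. Over all genes the 4 calls in adductor became 1 in the first set and without the 2 libraries, and 14 in the second set. They became 3 with a pseudocount of 1 or the replicate block, and 5 without a filter or with the set term. The 1 call in gastrocnemius became 0 with the set term or the first set, 2 with a pseudocount of 1 and 4 without a filter. The count was 27 in the second set, and the 0 calls of the difference became 1 there. Without the 2 libraries it stayed at 1, but that call was lower in diabetic mice, while the main call was higher. With the replicate block the count was 0, but in this contrast that block matches control and diabetic libraries that share no animal. Leaving out 1 library gave 1 to 4 calls in adductor and 0 to 3 in gastrocnemius. Fgf2, Hgf and Pdgfd had 9, 6 and 3 libraries under 3 reads.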
